A study of Mus musculus with 10 samples.

Results

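The transcripts described here are 38 interferon-stimulated genes, a named list of genes whose RNA is induced by type I or type III interferon, followed by gene symbol through RNA sequencing of mouse bone marrow B cell precursors. All 38 were present among the 23420 genes of the count tables, and all 38 were among the 14161 genes with enough counts to be tested. Small pre-B cells (B220+, IgM-, CD43-, small by light scatter) came from Mta2_VavKO mice, called Mta2 KO below (n = 3 libraries), and from control mice (n = 3). Pro-B cells (B220+, IgM-, CD43+) came from Mta2_VavKO (n = 2) and control mice (n = 2). All mice were C57BL/6. Mta2 encodes a subunit of the NuRD chromatin remodelling and histone deacetylase complex, and Vav regulatory elements drive Cre throughout the blood lineages, so that in such a line the deletion is not confined to B cells. The alleles carried by the controls, and the age and sex of the mice, were not given in the sources used here. Nothing in the labels says how many mice a library was made from, so the tests measure the spread between libraries.

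Interferons bind receptors that activate the kinases Jak1 and Tyk2. These phosphorylate Stat2, which acts with Irf9 in the complex ISGF3. ISGF3 binds the interferon-stimulated response element (ISRE) in promoters, and the induced genes include sensors of foreign RNA, enzymes that block viral replication, and Irf7, a transcription factor that amplifies interferon production. A low level of these RNAs is found in many blood cells in the absence of infection.

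Promoters of the members are shown because the ISRE is the element that defines their induction. RefSeq (GRCm38.p6) gave promoters for 30 of the 38 members, each running from 250 bases before to 50 bases after a transcription start. The ISRE core, searched as TTTC, any 2 bases and TTTC, and on the other strand as GAAA, any 2 bases and GAAA, was found in 15 of 37 member promoters (40.5%), which belong to 14 of the 30 genes. It was found in 3.44% of all 32851 promoters of the same length. The core of the gamma-activated site, searched as TTC, any 3 bases and GAA, which reads alike on both strands, was found in 21.6% of member promoters and in 8.3% of all promoters. Stretches around the match are printed below on the strand of the gene, with the ISRE core in capitals. They lie at chr19:34640769-34640848 (Ifit1, plus strand), chr4:156200840-156200919 (Isg15, minus strand), chr5:120907526-120907574 (Oas1a, minus strand), chr8:71537552-71537631 (Bst2, minus strand), chr10:128270248-128270320 (Stat2, plus strand) and chr3:142620569-142620648 (Gbp2, plus strand).
Ifit1: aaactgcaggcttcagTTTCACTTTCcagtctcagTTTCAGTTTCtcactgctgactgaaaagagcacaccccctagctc
Isg15: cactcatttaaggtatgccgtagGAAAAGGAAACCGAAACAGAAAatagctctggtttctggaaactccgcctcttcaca
Oas1a: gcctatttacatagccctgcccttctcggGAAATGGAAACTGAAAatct
Bst2: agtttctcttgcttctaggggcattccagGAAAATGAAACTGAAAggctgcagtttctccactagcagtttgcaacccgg
Stat2: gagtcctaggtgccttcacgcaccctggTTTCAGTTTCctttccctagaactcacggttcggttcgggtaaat
Gbp2: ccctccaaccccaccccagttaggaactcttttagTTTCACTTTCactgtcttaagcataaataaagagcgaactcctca

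Levels below are CPM, counts scaled to 1e+06 per library after adjustment of the libraries by the trimmed mean of M-values. Libraries held between 17805507 and 52127004 counts, so that 3 counts, taken as the floor of detection, corresponded to 0.054 to 0.173 CPM. Mta2 itself stood at 199, 179 and 198 CPM in the small pre-B KO libraries, against 438, 246 and 412 CPM in the small pre-B controls, and at 163 and 166 CPM in the pro-B KO libraries, against 436 and 375 CPM in the pro-B controls. Small pre-B control 3 stood apart, with histone genes at 0.953% and Malat1 at 1.4% of its counts, where no other library passed 0.0399% and 0.29%. Small pre-B KO 1 and KO 2 carried Xist at 2520 and 2940 CPM and Y-linked RNA at 8.13 and 0.079 CPM, whereas the other 8 libraries carried Y-linked RNA at 224 to 674 CPM. B lineage markers were present in every library, with a sum of 10400 to 15000 CPM in small pre-B and 2780 to 3580 CPM in pro-B libraries. The pro-B libraries also held markers of other cells. Plasmacytoid dendritic cell markers summed to 5900 to 6500 CPM, against 2570 to 3660 CPM in small pre-B libraries. Of these, Siglech stood at 1570 to 1890 CPM, against 0.839 to 13.7 CPM in small pre-B libraries. Spib went the other way, at 778 to 962 CPM in pro-B, against 2250 to 3050 CPM in small pre-B libraries. Of the 12 markers, 11 were called lower and 1 higher in small pre-B than in pro-B controls. Myeloid markers summed to 6900 to 15900 CPM in pro-B libraries, against 107 to 392 CPM in small pre-B libraries.

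In small pre-B cells, 33 of the 38 genes had a positive fold change in Mta2 KO against control, but only 2 rose past the test, Irf7 and Oas2. None fell past it. The test was edgeR's quasi-likelihood test with Benjamini-Hochberg adjustment over all 14161 genes, and a gene was called at an adjusted p below 0.05. Among all tested genes, 1.89% were called higher and 1.14% lower, and 7159 of the 14161 had a positive fold change. The median log2 fold change of the members was 0.59, against 0.01 over all tested genes. At an unadjusted p below 0.05, 21 members were higher and 1 was lower, where 1843 of all 14161 tested genes were higher and 1652 lower. Every KO library lay above every control library for 18 members, a pattern shown by 13.3% of all tested genes, and below every control library for 1 member, Samd9l, a pattern shown by 11.7%. In bulk RNA, fewer cells of a type and less RNA per cell cannot be told apart.

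**Figure D1:**
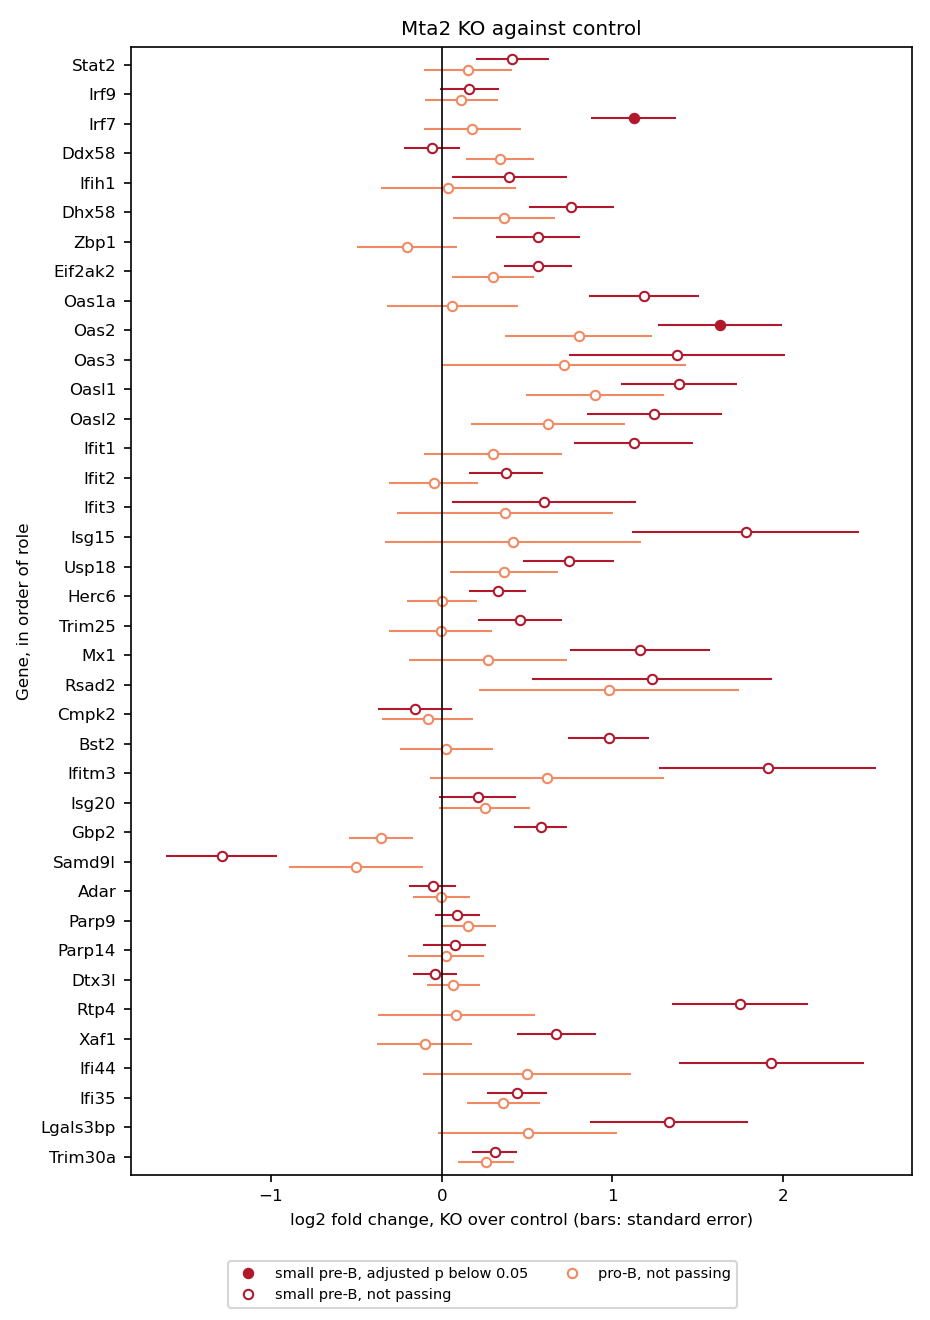
Log2 fold change (x axis) of each of the 38 genes (y axis, in order of role) in Mta2 KO over control, in small pre-B cells (dark) and pro-B cells (light), with bars of 1 standard error. The 2 filled points, Irf7 and Oas2 in small pre-B cells, are the only ones past an adjusted p below 0.05, and 33 of the 38 small pre-B points lie right of 0.

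The transcription factors of the list were Stat2, Irf9 and Irf7. Irf7 (chr7:141263183-141266424, minus strand) stood at 15.7, 22 and 18.6 CPM in the small pre-B KO libraries, against 10.4, 10.1 and 5.57 CPM in the controls. The groups did not overlap, and the log2 fold change was 1.13 ± 0.25 (standard error; edgeR adjusted p = 0.0482). Stat2, the ISGF3 subunit with the activation domain, stood at 194, 229 and 230 CPM in KO, against 183, 202 and 105 CPM in controls. Irf9, its DNA-binding partner, stood at 95.4, 140 and 125 CPM in KO, against 114, 87 and 121 CPM in controls. Both overlapped between the groups, and their adjusted p in edgeR was 0.261 for Stat2 and 0.59 for Irf9.

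The oligoadenylate synthetase (OAS) family makes the second messenger that activates RNase L, and 1 of its 5 members passed the test. Oas2 (chr5:120730333-120749848, minus strand) stood at 21.4, 30.7 and 20.9 CPM in KO, against 8.31, 10.9 and 4.49 CPM in controls, a log2 fold change of 1.63 ± 0.36 (edgeR adjusted p = 0.0486). All 3 KO libraries lay above the highest control. Oas1a stood at 12, 14.5 and 9.09 CPM in KO, against 6.13, 6.12 and 3.47 CPM in controls. Oasl1, which lacks the synthetase activity and restrains Irf7 translation in mice, stood at 17.2, 24.9 and 18.5 CPM in KO, against 6.63, 9.31 and 7.19 CPM in controls. Neither overlapped between the groups, and neither passed, with an edgeR adjusted p of 0.0768 for Oas1a and 0.0598 for Oasl1. Oasl2 stood at 5.6, 12.2 and 7.88 CPM in KO, against 4.18, 4.63 and 2.16 CPM in controls. Oas3 was the family member that overlapped, with 10.6, 8.26 and 5.17 CPM in KO, against 5.57, 3.38 and 0.568 CPM in controls. The 5 fold changes lay between 1.19 and 1.63 on the log2 scale, with a median of 1.38. Oas1a has near-identical copies in the mouse genome, among them Oas1g, so its share of reads is uncertain.

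**Figure D2:**
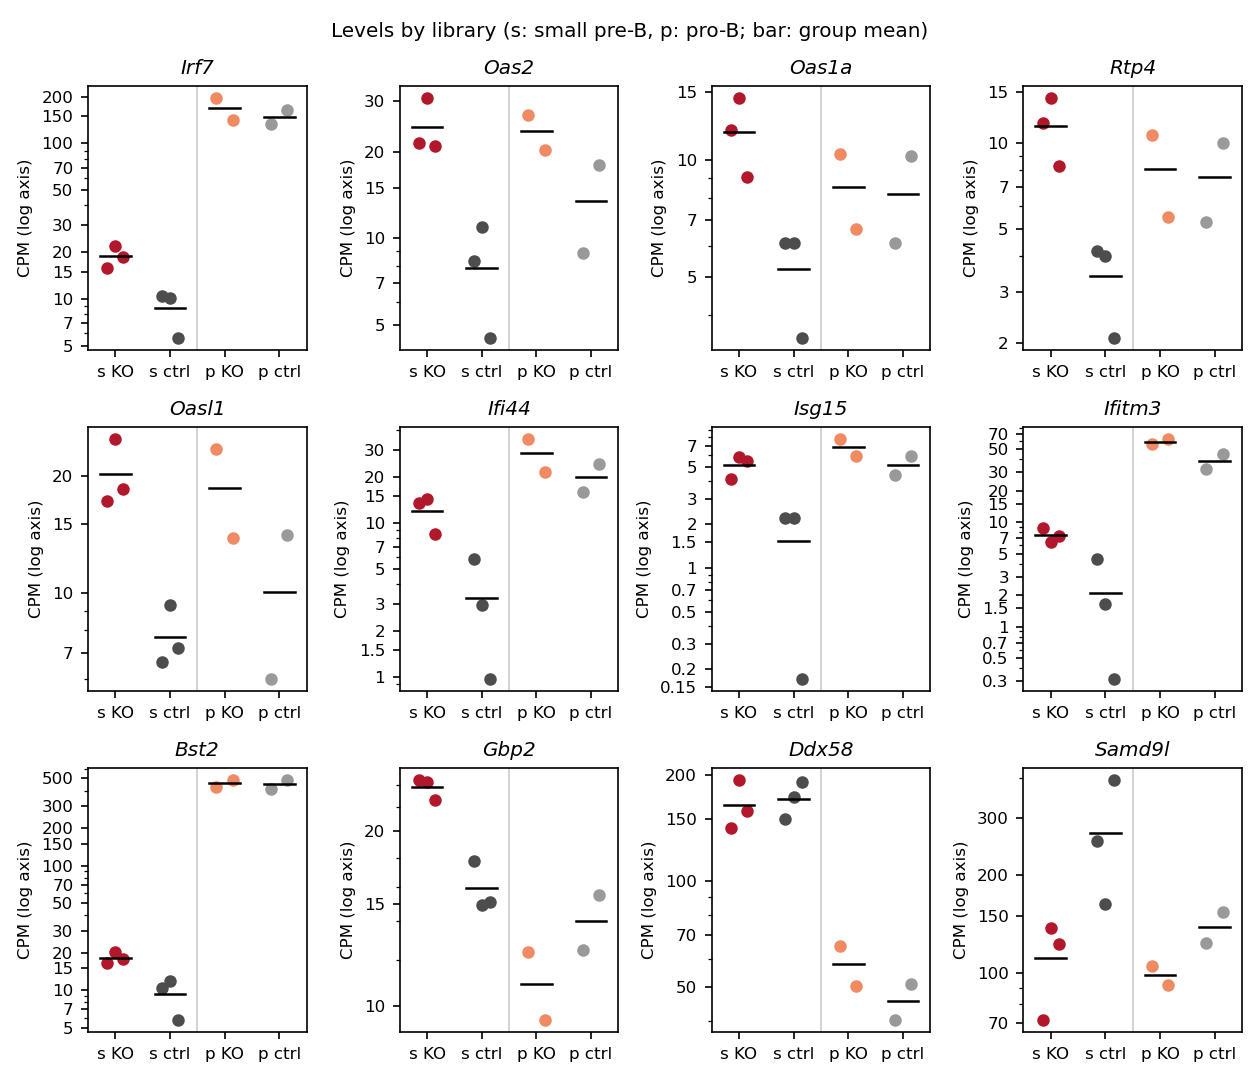
CPM (y axis, log scale) of 12 members in each of the 10 libraries (points) with group means (bars), small pre-B (s) left of pro-B (p), and with Mta2 KO left of control within each cell type. In the 3 small pre-B KO libraries Irf7 and Oas2 lie above the small pre-B controls, and Samd9l lies below them.

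The IFIT family binds foreign RNA at its 5′ end. Ifit1 stood at 3.06, 2.69 and 2.28 CPM in KO, against 1, 1.49 and 1.16 CPM in controls (log2 fold change 1.13 ± 0.35, edgeR adjusted p = 0.102). The KO libraries lay above the controls, at between 49 and 68 counts per KO library. Ifit2 and Ifit3 overlapped between the groups, with log2 fold changes of 0.38 and 0.60. Ifit3 shares sequence with Ifit3b, and its reads may be divided between the copies.

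Of the genes of the Isg15 system, a ubiquitin-like modifier with the enzymes that attach and remove it, none of 4 passed. Isg15 stood at 4.1, 5.85 and 5.45 CPM in KO, against 2.23, 2.22 and 0.17 CPM in controls. The lowest control value, 6 counts, came from control 3, and the log2 fold change was 1.78 ± 0.67 (edgeR adjusted p = 0.147). Usp18, the protease that removes Isg15 and damps the receptor, stood at 11.4, 15.8 and 11.1 CPM in KO, against 6.52, 6.12 and 10.2 CPM in controls, without overlap. Trim25, the ubiquitin ligase that activates RIG-I, and Herc6, the mouse Isg15 ligase, overlapped between the groups.

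Among the sensors, Dhx58 (LGP2) and Zbp1 lay higher in every KO library than in any control, without passing the test. Dhx58 stood at 27.9, 30.5 and 20.4 CPM in KO, against 15.3, 20 and 11.3 CPM in controls (edgeR adjusted p = 0.112). Ddx58 (RIG-I), the sensor of uncapped RNA, stood at 141, 193 and 158 CPM in KO, against 150, 173 and 190 CPM in controls, and overlapped. Ifih1 (MDA5), which binds long double-stranded RNA, and Eif2ak2 (PKR), a kinase that halts translation, also overlapped, with log2 fold changes of 0.40 and 0.57.

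Among the 8 antiviral effectors none passed, and 4 lay higher in every KO library (Mx1, Bst2, Ifitm3 and Gbp2). Bst2 (tetherin), which holds budding virions at the cell surface, stood at 16.4, 20.3 and 17.9 CPM in KO, against 10.3, 11.9 and 5.71 CPM in controls (log2 fold change 0.98 ± 0.24, edgeR adjusted p = 0.0587). Gbp2, a guanylate-binding GTPase, stood at 24.5, 24.3 and 22.6 CPM in KO, against 17.8, 14.9 and 15.1 CPM in controls (edgeR adjusted p = 0.0738). For both genes the KO libraries lay above all controls. Ifitm3, which blocks viral fusion, stood at 8.71, 6.52 and 7.32 CPM in KO, against 4.4, 1.65 and 0.313 CPM in controls. Mx1 stood at 4.5, 13.3 and 4.38 CPM in KO, against 3.46, 3.75 and 2.84 CPM in controls, so that KO 2 alone stood far above the rest. Samd9l, a restriction factor that inhibits translation, went the other way, at 71.3, 138 and 123 CPM in KO, against 255, 163 and 394 CPM in controls (log2 fold change -1.29 ± 0.33, edgeR adjusted p = 0.0651). Rsad2 (viperin), Cmpk2 and Isg20 overlapped between the groups.

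All 4 genes of RNA editing and ADP-ribosylation overlapped and had log2 fold changes between -0.05 and 0.09. Adar, which edits adenosine in double-stranded RNA, stood at 150, 202 and 153 CPM in KO, against 171, 162 and 191 CPM in controls. Parp9 and Dtx3l, which form a complex, share 334 bases of exon on opposite strands. Reads were counted without a strand option, so reads of the 2 genes in that stretch could not be told apart. The 6 remaining genes all had positive fold changes with an unadjusted p below 0.05 and none passed after adjustment. Rtp4, a chaperone of receptor transport, stood at 11.7, 14.3 and 8.3 CPM in KO, against 4.18, 4.03 and 2.07 CPM in controls (log2 fold change 1.75 ± 0.40, edgeR adjusted p = 0.0507). Ifi44 stood at 13.5, 14.3 and 8.44 CPM in KO, against 5.85, 2.94 and 0.966 CPM in controls (log2 fold change 1.93 ± 0.54, edgeR adjusted p = 0.0821). Every KO library exceeded every control for both genes. Xaf1 and Trim30a did likewise, while Ifi35 and Lgals3bp overlapped.

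**Figure D3:**
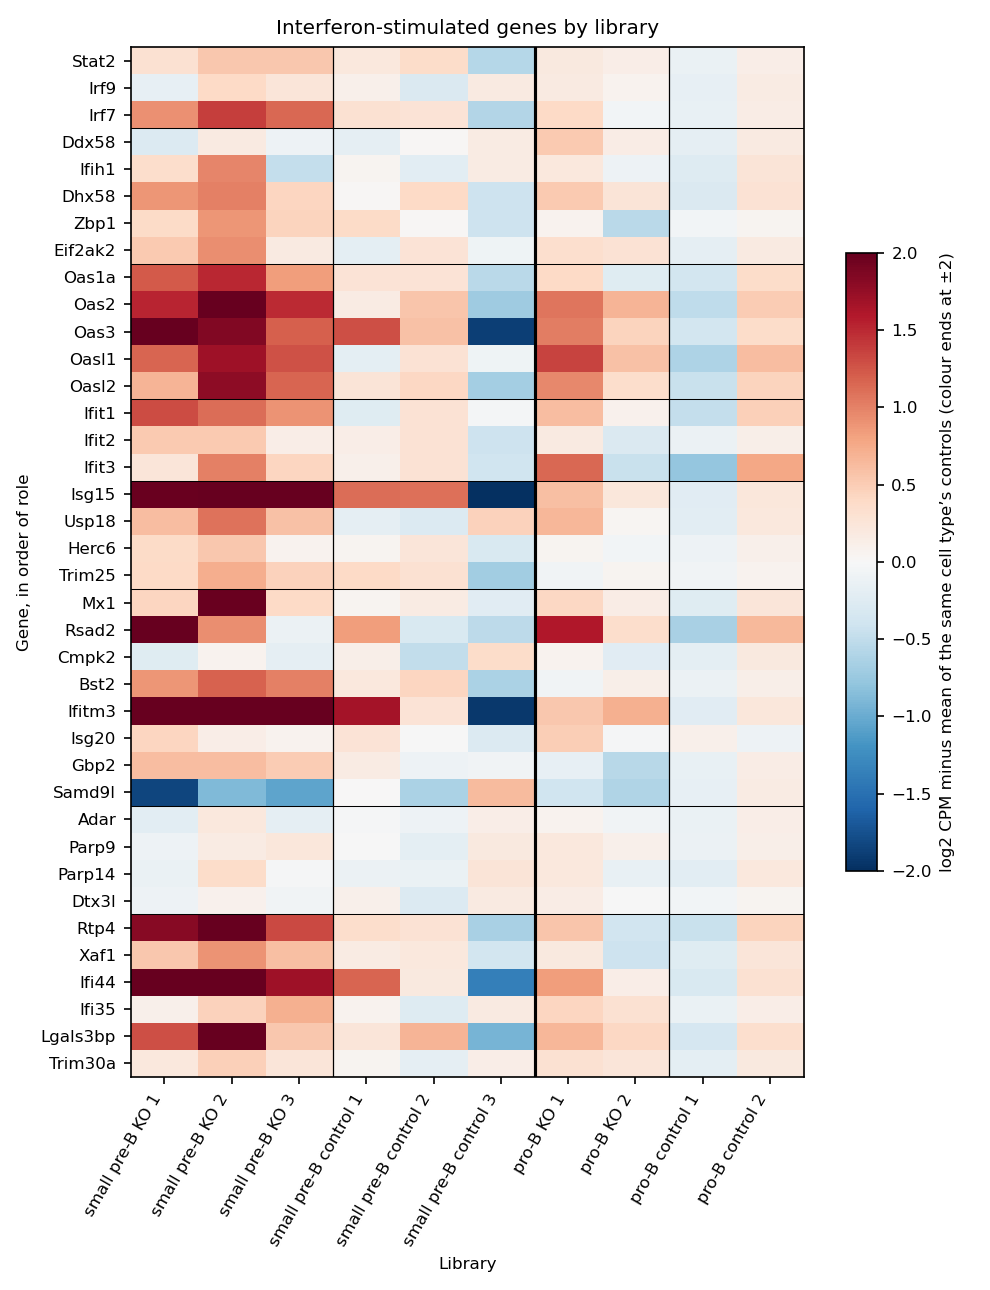
Level of the 38 genes (rows, by role) in the 10 libraries (columns, Mta2 KO left of control within each cell type), as log2 CPM relative to the mean of the controls of the same cell type. Colours end at differences of 2 in either direction. Among the small pre-B libraries, KO 2 is the highest for 26 rows and control 3 the lowest for 22.

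The members moved together by library as well as by group. Small pre-B KO 2 was the highest of the 6 small pre-B libraries for 26 of the 38 genes, and control 3 was the lowest for 22. Relative to the mean of the controls, the members' median was 0.52, 0.93 and 0.46 on the log2 scale in KO 1, KO 2 and KO 3, against 0.13, 0.23 and -0.34 in controls 1, 2 and 3. Thus all 3 KO medians lay above all 3 control medians, and control 3 lay furthest down. The summed CPM of the 38 genes overlapped, at 1952, 2538 and 2105 in KO, against 2034, 1866 and 2053 in controls. Both calls depended on which libraries entered the fit and on its terms. With Y-linked RNA as a covariate, which sets KO 1 and KO 2 apart from every control, the small pre-B KO effect rested on KO 3 alone. The members' median log2 fold change was then 0.42, against 0.59 without the covariate. Without any 1 of small pre-B KO 1, KO 2, KO 3, control 1 or the 4 pro-B libraries, which share the estimate of spread, no member passed. Without control 2, 6 members were called higher and 1 lower, and without control 3 only Bst2 was called. Of all 14357 genes tested without control 2, 937 were called higher and 730 lower. Of all 13811 tested without control 3, 175 were called higher and 105 lower.

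Some lists of markers of other blood cells moved with the KO group too, and others did not. Of 14 T cell markers 6 were called higher in small pre-B KO by the same test, and Cd3e, a T cell receptor chain, stood at 8.13, 16.6 and 5.41 CPM in KO, against 0.446, 0.282 and 0.0284 CPM in controls. The median log2 fold change of the T cell list was 2.08, and 13 of its 14 genes had a positive one. The exception was Cd2, at 56.9, 68.3 and 67.4 CPM in KO, against 163, 91.8 and 271 CPM in controls. Without Cd2, left out after seeing the data, the list summed to 197, 274 and 179 CPM in KO, against 72.8, 102 and 25.1 CPM in controls, without overlap. With Cd2 it overlapped, at 254, 342 and 246 CPM in KO, against 236, 193 and 296 CPM in controls, as did the natural killer cell list, at 173, 345 and 155 CPM in KO, against 140, 197 and 15.6 CPM in controls, with a median log2 fold change of 0.94 and no call. The myeloid list summed to 392, 292 and 205 CPM in KO, against 272, 197 and 107 CPM in controls, with a median log2 fold change of 0.73 and 1 of 15 genes called higher, Ly6c2 (edgeR adjusted p = 0.0283). KO 2, which was highest for most members, was also highest for the T cell and natural killer cell lists, and control 3 was lowest for the natural killer cell and myeloid lists. The plasmacytoid dendritic cell list overlapped, at 2820, 3050 and 3660 CPM in KO, against 2980, 3250 and 2570 CPM in controls. Its median log2 fold change was 0.04, that of the erythroid list was 0.075, and neither held a call. Of 5 plasma cell markers, with a median of 0.54, 1 was called higher, Xbp1 (edgeR adjusted p = 0.0407). No marker in any list except the erythroid list was at 0 in a whole group. The part of these cells in the member levels was not tested.

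**Figure D4:**
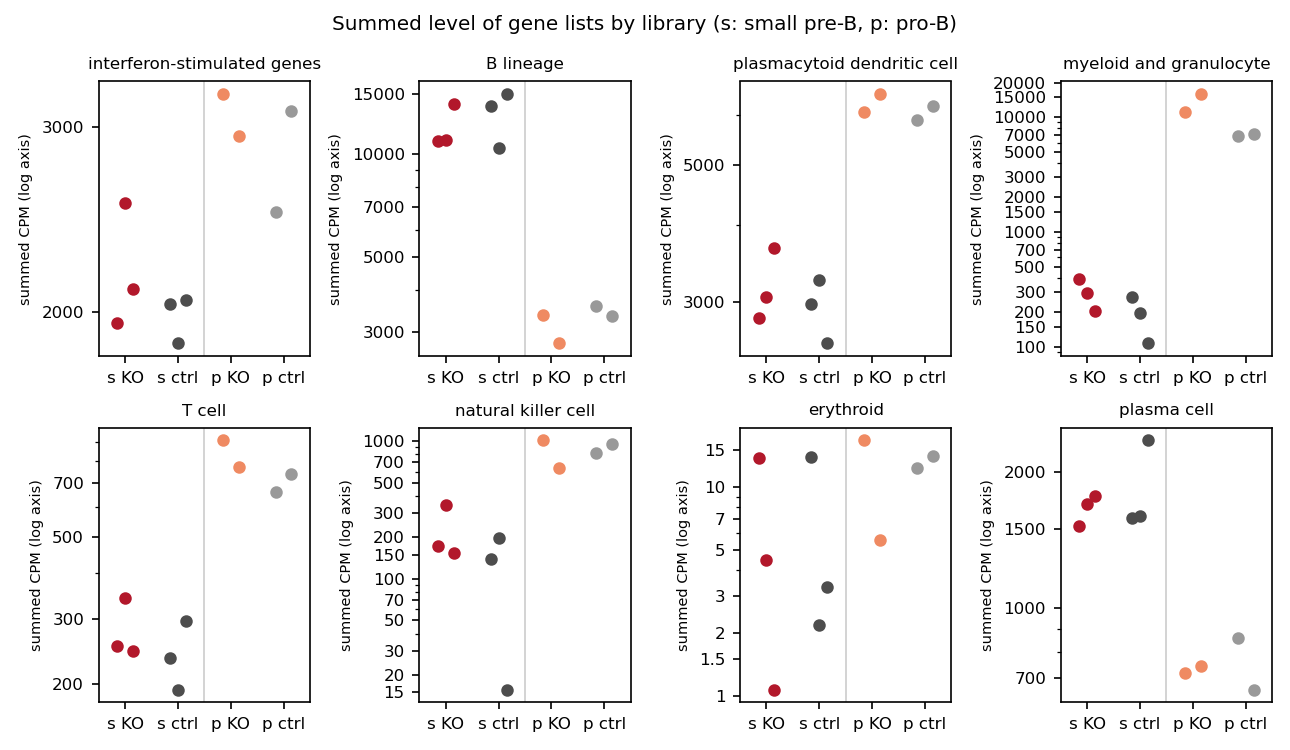
Summed CPM (y axis, log scale) of the 38 genes and of 7 lists of cell type markers in each library, with Mta2 KO left of control and small pre-B (s) left of pro-B (p). The sum of the 38 genes overlaps between small pre-B KO and control libraries. The B lineage sum is higher in small pre-B libraries. The plasmacytoid dendritic cell, myeloid, T cell and natural killer cell sums are higher in pro-B libraries, although Spib and Cd2 of these lists are higher in small pre-B libraries.

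Members with and without the ISRE core in their promoter both leaned towards the KO. Of the 14 genes with a match, 7 lay above all controls in every small pre-B KO library, with a median log2 fold change of 0.79 and no call. Of the 16 genes with a promoter but no match, 5 did, with a median of 0.41 and 1 call, Irf7. The 8 genes without an entry, among them Oas2, had a median of 0.75, and 6 of them lay above all controls. Of all tested genes, 13.3% lay above all controls in every KO library, and the median was 0.01. These sets of members were not tested against each other.

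Outside the 38 members, a wider list of other interferon-stimulated genes gave 6 calls among 52 tested, all higher in small pre-B KO, with a median log2 fold change of 0.29. These were the GTPases Igtp (47.2 ± 11.8 CPM in KO and 19.7 ± 3.24 CPM in controls, SD, n = 3 each), Gbp6 (9.11 ± 6.12 and 1.34 ± 0.104 CPM) and Gbp7 (42.4 ± 12.5 and 18.7 ± 5.15 CPM), with Slfn5, Parp12 and Tor3a. Igtp, Gbp6 and Gbp7 are best known as targets of interferon gamma. The adjusted p in edgeR lay between 0.0254 and 0.0458 for the 6 genes. Of the 52 tested, 37 had a positive fold change and 15 a negative one. Among all 14161 tested genes, 1.89% were called higher, and 13.3% lay above all controls in every KO library. Of 12 genes of MHC class I presentation and the immunoproteasome, 1 was called higher, the immunoproteasome subunit Psmb8, at 167 ± 11.3 CPM in KO and 122 ± 9.89 CPM in controls (edgeR adjusted p = 0.0425), and 9 lay above all controls in every KO library. Of 20 sensors and adaptors 1 was called higher, Mavs, the mitochondrial adaptor of RIG-I, at 79.7 ± 4.8 CPM in KO and 60.6 ± 2.96 CPM in controls (edgeR adjusted p = 0.0475). None was called among 11 receptors and transducers, 9 other interferon regulatory factors and 10 negative regulators. Of 14 interferon genes, 6 had no count in any library and only Ifng had enough counts to be tested. It was not called.

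In pro-B cells, none of the 38 genes was called in Mta2 KO against control. Over all genes 0.0353% were called higher and 0% lower. No member had an unadjusted p below 0.05, where 659 of all 14161 tested genes were higher and 254 lower at that threshold. The adjusted p in edgeR lay between 0.784 and 1, and the median log2 fold change was 0.22, against -0.01 over all tested genes. At an unadjusted p below 0.05, the DESeq2 Wald test gave 1 member and limma-voom 3, and neither tool called any after adjustment. With the pro-B groups fitted alone in edgeR, 4 members had an unadjusted p below 0.05, and the smallest adjusted p was 0.0612. No member was called in that fit, which called 688 of all 14060 genes higher and 168 lower. Both KO libraries lay above both controls for 8 members (27.4% of all genes) and below them for 2, Samd9l and Gbp2 (28.1%). Irf7 stood at 196 and 142 CPM in KO, against 133 and 165 CPM in controls. Oas2 stood at 26.7 and 20.3 CPM in KO, against 8.92 and 18 CPM in controls. Oas2 did not overlap, Irf7 did, and neither passed. Pro-B control 1 was the lowest of the 4 libraries for 31 members, and KO 1 the highest for 28. Myeloid markers summed to 11100 and 15900 CPM in KO, against 6900 and 7190 CPM in controls, and their part in the member levels was not tested.

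The difference between the KO effects in small pre-B and pro-B cells was tested directly, as the small pre-B fold change minus the pro-B fold change. No member passed, and 0% of all genes did in either direction. The smallest adjusted p among members in edgeR was 0.679. The median difference was 0.41 on the log2 scale, and 4 members had an unadjusted p below 0.05, all positive. Of all 14161 tested genes, 428 did with a positive difference and 479 with a negative one. The median was 0.14 without pro-B control 2, 0.23 without small pre-B control 3 and 0.26 without pro-B KO 2. It was 0.71 to 0.79 without pro-B control 1 or KO 1. With Y-linked RNA as a covariate, where the small pre-B KO effect rests on KO 3 alone, it was 0.14. With limma-voom 10 members had an unadjusted p below 0.05. Gbp2 was above all controls in small pre-B KO and below both in pro-B KO, where it stood at 12.4 and 9.44 CPM, against 12.5 and 15.5 CPM in controls. Its difference did not pass the test.

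Between the cell types in controls, 15 of the 38 were lower and 4 higher in small pre-B than in pro-B cells by the edgeR test, and 19 passed in neither direction, where 29.4% of all genes were called lower and 26.0% higher. Every small pre-B control lay below both pro-B controls for 18 members (38.9% of all genes) and above both for 5 (34.1%). These counts are set beside the shares of all genes with no test. The median log2 difference was -0.61, against -0.02 over all genes, and was -0.26 without pro-B control 2. In Mta2 KO, 12 were lower and 3 higher, where 27.3% of all genes were called lower and 24.0% higher, with a median of -0.11. That median was -0.02 without pro-B KO 1 and -0.32 without pro-B KO 2. It was -0.01 without small pre-B KO 3 and -0.25 without small pre-B KO 2. With Y-linked RNA as a covariate, where small pre-B KO 3 alone sets the KO level, it was -0.29. In Mta2 KO, every small pre-B library lay below both pro-B libraries for 16 members (39.4% of all genes) and above both for 8 (36.5%). The other cells in the pro-B gate, the different sort gates and the different depths of the libraries cannot be told apart from the cell stage in these differences.

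Bst2 differed most. It stood at 10.3, 11.9 and 5.71 CPM in small pre-B controls, against 412 and 484 CPM in pro-B controls, a log2 difference of -5.60 ± 0.28 (edgeR adjusted p = 3.41e-06). Mouse Bst2 is also the antigen by which plasmacytoid dendritic cells are stained, and in the pro-B libraries it stands beside the Siglech level given above. Irf7 differed by -4.11 ± 0.28, from its levels given above, and Ifitm3 by -4.27 ± 0.69, with 4.4, 1.65 and 0.313 CPM in small pre-B controls, against 32.4 and 44.5 CPM in pro-B controls. Lgals3bp, a secreted glycoprotein, stood at 6.58, 8.9 and 2.9 CPM in small pre-B controls, against 82.3 and 130 CPM in pro-B controls. Mx1, Oasl2, Oas3 and Ifi44 differed by between -3.68 and -2.67 on the log2 scale. For all of these the groups were wide apart.

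All 5 OAS genes and all 3 IFIT genes had negative differences in controls. Oasl2 and Oas3 were called lower in small pre-B controls, whereas Oas1a, Oas2 and Oasl1 were not called, with log2 differences of -0.65, -0.78 and -0.38. The IFIT genes differed by -0.79, -0.52 and -0.29 for Ifit1, Ifit2 and Ifit3, and none was called. The sensor Ddx58 was higher in small pre-B cells, at 150, 173 and 190 CPM in controls, against 40.2 and 51.1 CPM in pro-B controls, a log2 difference of 1.91 ± 0.20 (edgeR adjusted p = 6.63e-05). Its relative Ifih1 was lower, at 5.02, 4.15 and 5.4 CPM in small pre-B controls, against 11.6 and 16.8 CPM in pro-B controls. Parp14 and Dtx3l, of the ADP-ribosylation group, and Samd9l were the other 3 genes called higher in small pre-B controls.

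**Figure D5:**
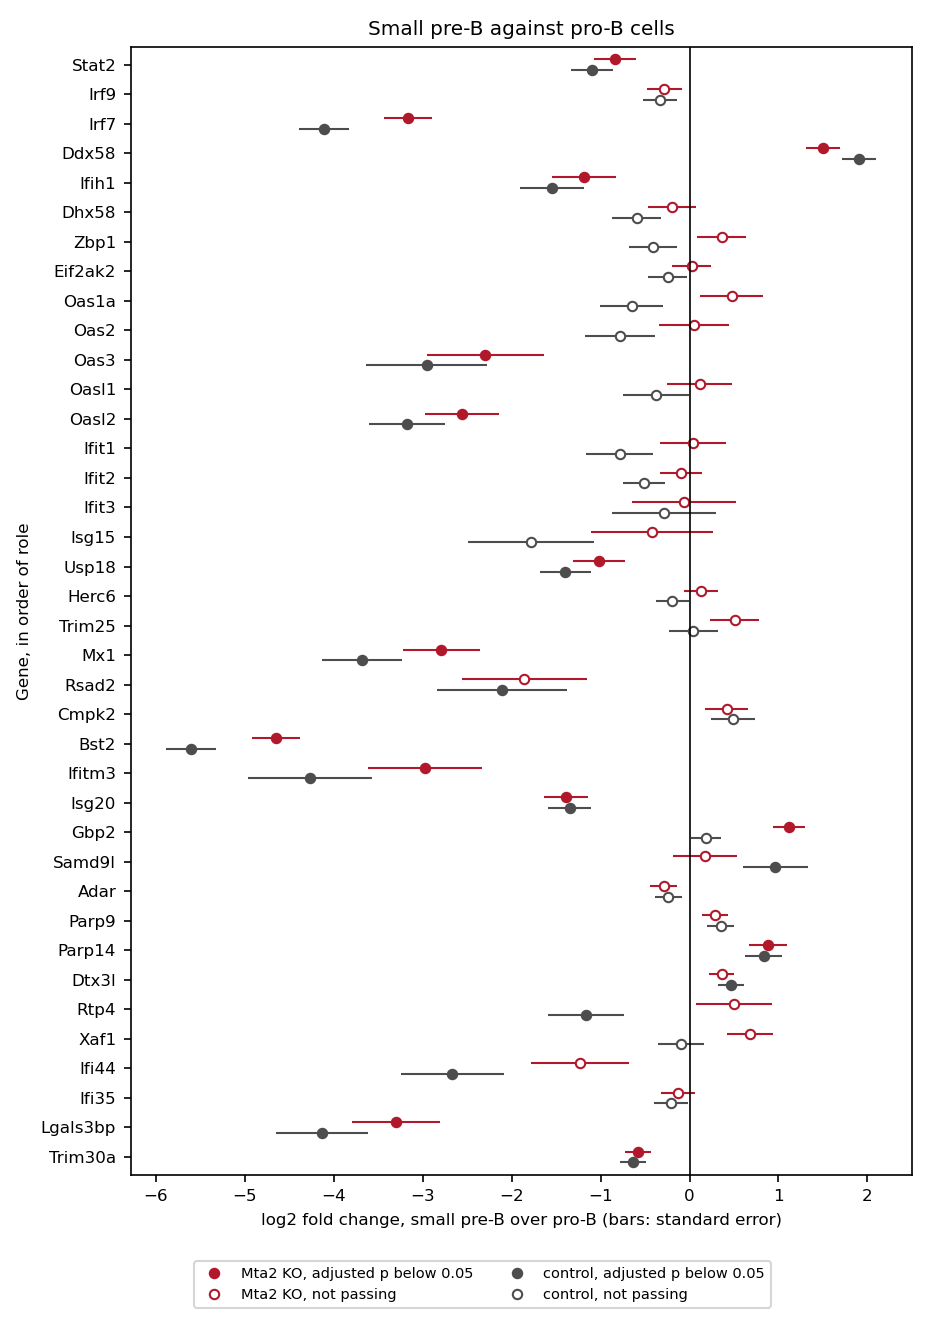
Log2 fold change (x axis) of each of the 38 genes (y axis, by role) in small pre-B over pro-B cells, in Mta2 KO (red) and in controls (grey), with bars of 1 standard error and filled points at an adjusted p below 0.05. Bst2 lies furthest left, at -5.60 in controls, and Ddx58 furthest right, at 1.91.

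In Mta2 KO cells, Ddx58 and Parp14 were again called higher in small pre-B than in pro-B cells, and Gbp2 was the other gene called higher. In KO cells Gbp2 measured 24.5, 24.3 and 22.6 CPM at the small pre-B stage, against 12.4 and 9.44 CPM at the pro-B stage (log2 difference 1.12 ± 0.18, edgeR adjusted p = 0.000768). In controls the log2 difference of Gbp2 was 0.18 and was not called. The test of the difference between these stage effects is the same as the test of the difference between the KO effects given above, which no member passed. Oas2, at 0.05, and Ifit1, at 0.04 on the log2 scale, stood at similar fitted levels in the 2 cell types of the KO, with standard errors of 0.39 and 0.37.

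Of the 15 genes called lower in controls, Rsad2, Rtp4, Ifih1 and Trim30a lost the call without pro-B control 2. Rsad2 lost it also without small pre-B control 2 or control 3, and Rtp4 without small pre-B control 3, KO 1 or KO 2. Of those called higher, Parp14 lost it without pro-B control 1, Dtx3l without either pro-B control or small pre-B control 1, and Samd9l with each library left out in turn except small pre-B control 2 and KO 1. In the KO, Oas3, Stat2, Usp18, Ifih1 and Trim30a lost the call without pro-B KO 1, Stat2, Ifih1 and Parp14 without pro-B KO 2, Ifih1 without small pre-B KO 1, and Oas3 and Usp18 without small pre-B KO 3.

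Receptor and transducer genes also differed between the cell types. Of 11 tested, 9 were lower and 1 higher in small pre-B controls, where 29.4% of all genes were called lower and 26.0% higher. Ifnar2, a chain of the type I interferon receptor, averaged 52.3 ± 6.29 CPM in small pre-B controls (SD, n = 3) and 287 ± 24.4 CPM in pro-B controls (SD, n = 2), and Ifnar1, its partner chain, averaged 181 ± 14.3 CPM and 313 ± 24.3 CPM. Irf8, a factor needed for plasmacytoid dendritic cell identity and also used in B cells, averaged 237 ± 7.8 CPM in small pre-B controls and 2460 ± 145 CPM in pro-B controls. Irf4, which acts with Irf8 at the pre-B stage, went the other way, at 1470 ± 475 CPM and 253 ± 65.2 CPM.

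Per kilobase of exon, the order of the members differed between the cell types. In small pre-B controls the highest levels were those of Samd9l (50.8 CPM per kilobase), Irf9 (39.9), Trim30a (39.3), Trim25 (37.3) and Stat2 (37.2), and the lowest was Rsad2 (0.221). In small pre-B KO the order began with Trim25 (51.2 CPM per kilobase), Stat2 (49.5) and Trim30a (48.7), and Samd9l stood at 20.8. In pro-B controls Bst2 led with 585 CPM per kilobase, followed by Irf7 (80.3) and Stat2 (79.6), and Ifit1 was lowest at 0.8. The SDs of the leading small pre-B genes overlapped, so that their order is not resolved. Trim30a belongs to a cluster of similar genes, and its level per kilobase carries that uncertainty.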

How the data were processed

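Polyadenylated RNA of sorted cells was sequenced as stranded libraries, per the labels' protocols. The authors deposited raw read counts per gene for each library, made with featureCounts 1.4.3-p1 after alignment with STAR, per the submitters' processing notes, and counted without a strand option, per the file headers. Counts were scaled by TMM, filtered by edgeR's filterByExpr (minimum count 10) and fitted with edgeR 4.0.16 in R 4.3.3, with 1 mean for each of the 4 groups over all 10 libraries, which share the estimate of spread. P-values are two-sided, from the quasi-likelihood test, adjusted by Benjamini-Hochberg over all 14161 genes. DESeq2 1.42.0 and limma-voom (limma 3.58.1) were alternatives, beside other scalings, filters, designs and each library left out. The members and lists were chosen with earlier results of these data known. All 38 members may be named. Of other lists, genes that pass the test or have the smallest p are named. No set test was run. In counts simulated for small pre-B KO against control (13879 genes), edgeR recovered 54% of log2 changes of 1 and 90% of changes of 2, with 9 false calls among 153. The simulated counts held no library that stood apart and no difference in Y-linked RNA within a cell type. These rates therefore need not hold for the real libraries. The main fit did not pair libraries by the number in their titles, and the replicate block did. Deviations from the group mean of same-numbered small pre-B KO and control libraries correlated at 0.102, 0.155 and 0.045. Differently numbered pairs correlated at -0.111 to 0.002. Pro-B correlations were 0.015 and -0.015, which cannot inform on pairing because deviations mirror each other in groups of 2. Whether the libraries are paired was not settled. For small pre-B control 3, the title has 931 and the header of the deposited counts 919. Floors cover counting error only. Intervals are standard errors of the fit unless an SD is named.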

Additional observations from a re-analysis of the deposited data

How the results depend on the processing

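In small pre-B KO against control, 2 members were called higher and 0 lower. The count higher was 0 with upper-quartile scaling, with the compared groups fitted alone and with the replicate block. It was 1 with limma-voom and 15 with the DESeq2 Wald test, which also called 1 lower. With Y-linked RNA as a covariate, or with only the libraries that carry it, the small pre-B KO effect rests on KO 3 alone. The members' median log2 fold change was then 0.416 and 0.419. Leaving out 1 library gave 0 to 6 higher and 0 to 1 lower. Irf7 lost its call in 15 of 20 alternatives, with an adjusted p between 0.000797 and 0.222, and Oas2 in 14 of 20, with an adjusted p between 0.000424 and 0.248. Their fold changes stayed positive throughout. The members' median log2 fold change lay between 0.416 and 0.706, and the number above all controls between 17 and 25. The share of all genes above all controls lay between 12.7% and 30.2%. It was 19.3% where 25 members were above, without KO 3. It was 30.2% where 24 were, with the Y-linked libraries alone, which leave KO 3 as the only small pre-B KO library. Over all genes the calls in this comparison were 267 higher and 161 lower in the report, and 1068 and 801 with DESeq2. They were 126 and 27 with the replicate block and 0 with the groups alone. With 1 library left out they were as many as 937 and 730, without control 2, or as few as 1 and 0, without control 1. In pro-B cells the 5 calls became 688 and 168 with the groups alone, 136 and 46 with DESeq2, 132 and 16 with limma-voom, and 0 with the replicate block, with no member among them. The pro-B members' median was 0.032 without control 1 and 0.472 without control 2.

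Small pre-B against pro-B, the 4 members called higher in controls became 2 with the groups alone or the replicate block, and 1 to 6 with 1 library left out. The 3 called higher in KO became 6 with the groups alone, and 2 to 6 with 1 library left out, and the 12 called lower became 7 to 14. Some KO fold changes changed sign. With Y-linked RNA as a covariate and with the Y-linked libraries alone, small pre-B Rsad2 (-0.207 and -0.205, against 1.23 in the report), Ifih1 (-0.493 and -0.487, against 0.40) and Parp14 (-0.033 and -0.026, against 0.08) turned negative. Both fits rest on small pre-B KO 3, where Rsad2, Ifih1 and Parp14 stood at 0.699, 3.45 and 201 CPM. With 1 library left out, the small pre-B KO fold change ranged between -0.163 and 0.048 for Dtx3l, -0.191 and 0.04 for Ddx58, -0.203 and 0.024 for Adar, -0.365 and 0.044 for Cmpk2, 0 and 0.197 for Parp9, -0.017 and 0.696 for Ifih1, and -0.085 and 0.216 for Parp14. The cause of these changes was not tested. The count of members above all controls, and its alternatives, were chosen after seeing the data. At least 3 counts were needed for a level to count as detected, and Isg15 in control 3 rests on 6.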
